A study of Arabidopsis thaliana with 12 samples.

Results

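The ABF/AREB/ABI5 factors are basic leucine zipper (bZIP) transcription factors of group A that act at the end of the abscisic acid (ABA) pathway. Their expression was followed in Arabidopsis thaliana seedlings through 7 genes picked by locus, which are ABF1 (AT1G49720), ABF2 (AT1G45249), ABF3 (AT4G34000), ABF4 (AT3G19290), ABI5 (AT2G36270), EEL (AT2G41070) and AREB3 (AT3G56850). They are 7 of 24035 genes with a value in at least 1 library, and each had reads in all 12 libraries.

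Poly(A) RNA was sequenced from seedlings 10 days old, either wild type (WT) or carrying the cost1 mutation, in 4 groups of 3 libraries. The WT control and cost1 control groups were not dehydrated, and the WT dehydrated and cost1 dehydrated groups lay on a petri dish for 6 h. The labels name the mutant only as cost1, without its allele or background accession, and do not say whether the 3 libraries of a group came from separate plants, so p-values measure the spread between these libraries, which may be technical. The study's title concerns the COST1 protein in growth, drought tolerance and autophagy.

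ABA that builds up in drying tissue is bound by receptors that hold back the clade A protein phosphatases 2C, and this frees SnRK2 kinases to phosphorylate the group A bZIP factors. The factors bind the ABA-responsive element (ABRE), whose core reads ACGTG, in promoters of genes for protective proteins, phosphatases and further transcription factors. ABF2, ABF3 and ABF4 are best known from osmotic stress in vegetative tissue, ABF1 from cold and ABA, and ABI5 from seed germination and the arrest of young seedlings, while EEL opposes ABI5 at a late-embryogenesis gene in seeds and AREB3 is also known from seeds.

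The part of the proteins that touches DNA is the basic region, and the 7 genes were close to each other there at the DNA level. The stretch of 72 coding bases below, spliced and read 5′ to 3′ on the coding strand from the TAIR10.1 reference, is shown because it is the feature that joins the 7 genes. Capitals mark the 27 positions at which at least 1 of the 7 differs, and the lower-case letters mark the 45 positions shared by all.
ABF1: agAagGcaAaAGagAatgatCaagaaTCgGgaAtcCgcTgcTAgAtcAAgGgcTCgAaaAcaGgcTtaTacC
ABF2: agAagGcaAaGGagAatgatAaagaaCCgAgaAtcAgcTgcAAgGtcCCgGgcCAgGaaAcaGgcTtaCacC
ABF3: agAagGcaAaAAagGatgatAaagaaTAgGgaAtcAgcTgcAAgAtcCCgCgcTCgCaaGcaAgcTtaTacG
ABF4: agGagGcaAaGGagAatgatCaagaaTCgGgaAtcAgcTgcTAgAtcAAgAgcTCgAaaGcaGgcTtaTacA
ABI5: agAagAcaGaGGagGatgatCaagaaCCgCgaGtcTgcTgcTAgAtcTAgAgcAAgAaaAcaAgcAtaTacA
EEL: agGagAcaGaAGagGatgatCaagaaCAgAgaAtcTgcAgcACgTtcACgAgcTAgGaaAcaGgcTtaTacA
AREB3: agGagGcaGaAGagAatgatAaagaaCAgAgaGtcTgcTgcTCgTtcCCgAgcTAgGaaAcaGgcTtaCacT
Identity over these bases ran from 72.2% for ABF3 and ABI5 to 91.7% for ABF1 and ABF4, and it was 87.5% for AREB3 and EEL. No run of 49 bases, the read length, was common to any pair, so no whole read from this stretch could match 2 of the genes exactly. In each gene the stretch crosses an intron, and in ABF2 it is encoded by 3 of 10 annotated transcripts and in ABF4 by 4 of 5.

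The 250 bases before the annotated gene start are shown for ABI5, ABF3 and ABF2, the genes with the steepest rises described below, and for ABF1, which was not called in either genotype. Capitals mark each ACGTG on either strand (CACGT is its reverse complement), and 2 cores that overlap on opposite strands form the palindrome CACGTG, the G-box. In TAIR10.1 the windows are chr2:15207637-15207886 on the minus strand for ABI5, chr4:16295084-16295333 on the plus strand for ABF3, chr1:17167925-17168174 on the minus strand for ABF2 and chr1:18399753-18400002 on the plus strand for ABF1, each ending at the base before the gene.
ABI5: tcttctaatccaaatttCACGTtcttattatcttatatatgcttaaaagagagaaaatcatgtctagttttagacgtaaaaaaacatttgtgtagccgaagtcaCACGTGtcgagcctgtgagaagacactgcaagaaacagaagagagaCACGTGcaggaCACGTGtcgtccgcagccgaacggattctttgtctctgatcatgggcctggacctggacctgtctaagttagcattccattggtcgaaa
ABF3: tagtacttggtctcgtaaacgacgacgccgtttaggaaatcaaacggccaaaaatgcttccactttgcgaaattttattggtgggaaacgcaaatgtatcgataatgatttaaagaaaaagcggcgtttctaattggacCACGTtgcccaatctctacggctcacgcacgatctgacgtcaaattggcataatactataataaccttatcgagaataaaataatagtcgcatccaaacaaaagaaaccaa
ABF2: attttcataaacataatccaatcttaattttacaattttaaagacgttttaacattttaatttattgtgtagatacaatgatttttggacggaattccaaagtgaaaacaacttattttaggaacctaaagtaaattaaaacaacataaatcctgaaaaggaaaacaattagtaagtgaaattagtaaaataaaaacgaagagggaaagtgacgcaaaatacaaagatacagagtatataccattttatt
ABF1: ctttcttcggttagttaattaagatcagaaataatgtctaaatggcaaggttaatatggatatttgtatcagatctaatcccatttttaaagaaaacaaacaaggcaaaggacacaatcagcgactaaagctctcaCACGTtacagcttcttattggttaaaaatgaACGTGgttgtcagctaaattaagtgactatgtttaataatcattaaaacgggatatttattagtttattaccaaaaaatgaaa
With the overlapping cores of a G-box counted as 1 site, the ABI5 window held 4 sites, of which 3 were G-boxes (7 cores in all), between bases −233 and −84 counted from the start. The ABF3 window held 1, that of ABF4 (chr3:6686792-6687041, plus strand) held 1, that of ABF1 held 2, and those of ABF2, AREB3 and EEL held none. Among 27444 protein-coding genes, 22.9% had at least 1 ACGTG in these 250 bases and 6.49% had a G-box. Over 1000 bases the 7 genes had 5 sites (ABI5), 3 (ABF3), 2 (ABF1), 1 each (ABF4, AREB3, EEL) and 0 (ABF2), where 54.4% of all genes had at least 1. The AREB3 and EEL windows of 250 bases overlap the neighbouring genes AT3G56860 and AT2G41060. The windows of 1000 bases also overlap AT2G36280 and AT2G36290 for ABI5 and AT1G07583 for ABF1. A match describes letters only, and no binding was measured.

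**Figure D1:**
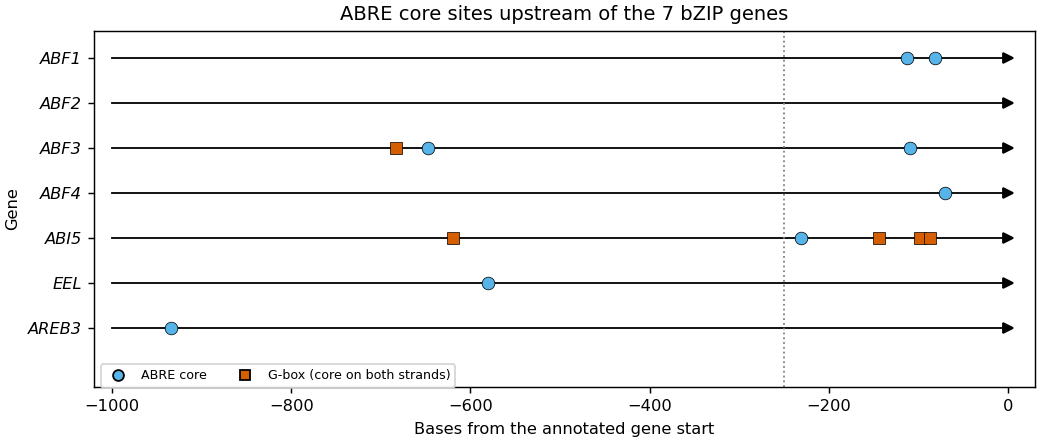
Positions of ABRE cores (circles) and G-boxes (squares) in the 1000 bases before the annotated start of each of the 7 genes; the x axis gives bases from the start and the dotted line marks the 250-base window. ABI5 has 4 sites inside the window and ABF2 has none along the whole line.

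The libraries were of like size, with summed expected counts from 5884728 to 6223687. In WT the gene the mutant is named for, COST1 (AT2G45260), averaged 191 ± 23.0 expected counts (SD, n = 3) without dehydration and 163 ± 23.6 with it, and in the mutant 44.3 ± 7.24 and 58.2 ± 3.00, in the direction of the labels. The leading principal component, with 75.9% of the variance, set cost1 control replicate 2 at −53.6, apart from the other 5 control libraries at −101 to −95.6, while cost1 dehydrated replicate 2 lay farthest on the dehydrated side at 123. Values without 1 or both of these libraries are given beside several results below. The 4 green-tissue markers, genes of light harvesting and Rubisco, were above 0 in every group. Their summed FPKM (a read level scaled to transcript length and library size) was 26200 to 30800 in WT before and 17200 to 22300 after dehydration, and 24500 to 35100 and 13400 to 20900 in the mutant, so it moved with the dehydration contrast of every gene below. Summed guard cell markers (3 genes) went from 32.6 to 36.8 FPKM in the WT controls to 19.2 to 26.3 after dehydration and from 27.4 to 36.7 to 17.1 to 24.3 in the mutant, and 5 root markers from 15.9 to 20.7 to 13.6 to 14.9 and from 17.4 to 19.4 to 10.2 to 13.9. Within these sums the genes did not all move one way. By the edgeR test described below, the 4 green-tissue genes were not called in WT and fell in cost1. The guard cell genes FAMA and MYB60 fell in both genotypes, while KAT1 rose in WT (log2 0.60 ± 0.21, SE) and was 0.30 ± 0.21 in cost1, not called. Of the 2 root genes with enough counts to test, SCR, of the endodermis, fell (−0.73 ± 0.22 in WT and −0.81 ± 0.22 in cost1) and WOX5, of the root stem cell niche, rose (4.27 ± 0.73 and 3.57 ± 0.81). The WOX5 rise began near 0, at a mean CPM (counts scaled to library size) of 0.259 in WT control and 0.212 in cost1 control. After dehydration the WOX5 mean was 5.41 in WT and 2.68 in cost1. The root genes COBL9, EXPA7 and MYB36 reached at most 1, 2 and 6 counts in any library. The part of these tissues in the results was not tested.

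In WT control seedlings all 7 genes were expressed at low to middling levels per unit of length. ABF4 stood first at 21.9 ± 3.93 FPKM (SD, n = 3) and ABF3 second at 17.5 ± 1.97, with overlapping libraries. ABF1 at 13.7 ± 1.00, ABF2 at 13.0 ± 0.787 and AREB3 at 12.9 ± 2.13 formed a middle group whose libraries overlapped one another. EEL at 4.45 ± 0.786 and ABI5 at 1.25 ± 0.169 lay below these, each apart from its neighbour. In cost1 control the order began with ABF3 at 27.7 ± 14.4 FPKM, where 1 library stood high, followed by ABF4 at 18.6 ± 1.49, ABF2 at 16.1 ± 6.05, ABF1 at 12.3 ± 4.67 and AREB3 at 11.1 ± 1.38, with overlap between neighbours. EEL at 3.50 ± 1.15 and ABI5 at 1.38 ± 0.370 again closed the order, each apart from its neighbour.

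After dehydration the order changed. In WT dehydrated, ABF3 reached 162 ± 23.0 FPKM, ABF2 91.6 ± 11.0, ABF4 32.0 ± 2.34 and ABI5 20.9 ± 4.44, each apart from the next. The lowest ABI5 library, at 15.77 FPKM, was still below the highest EEL library, at 16.79. ABF1 at 13.7 ± 2.19, AREB3 at 12.2 ± 0.450 and EEL at 10.8 ± 5.52 followed with overlapping libraries. In cost1 dehydrated the first 4 places were the same, with ABF3 at 206 ± 58.5 FPKM, ABF2 at 108 ± 38.7, ABF4 at 37.7 ± 9.25 and ABI5 at 27.1 ± 12.7, but of these only ABF2 was apart from the next. AREB3 at 12.6 ± 2.79, ABF1 at 12.5 ± 4.24 and EEL at 9.30 ± 2.25 overlapped.

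**Figure D2:**
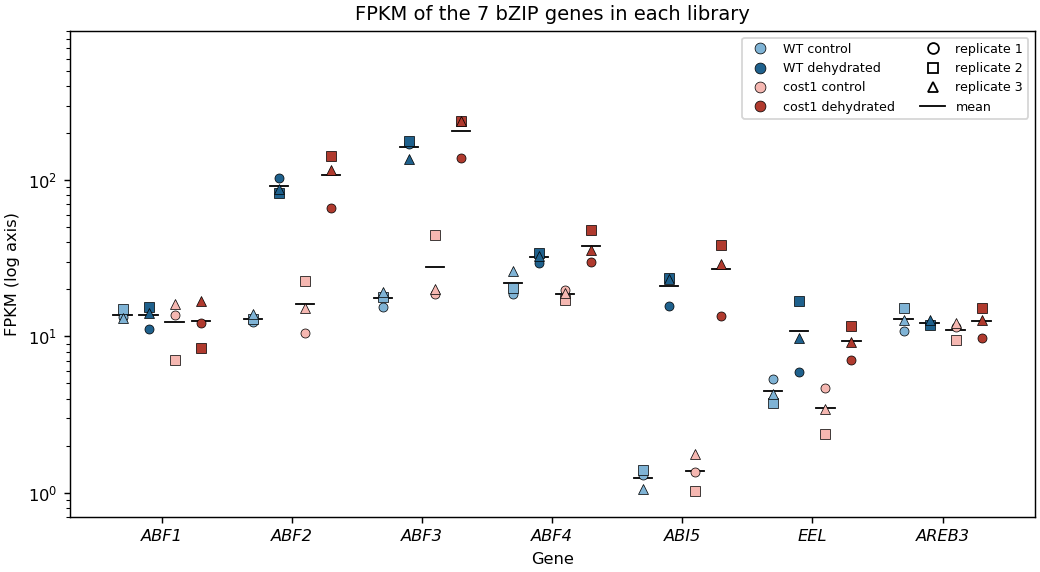
FPKM on a log axis for the 7 genes, with a symbol for each library (shape for replicate, colour for group) and a line at the mean of each group. ABF2, ABF3 and ABI5 are far higher in every dehydrated library than in every control library, and the square of cost1 control replicate 2 stands above its group for ABF3.

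The dehydration response was tested within each genotype with edgeR's quasi-likelihood test, and a gene was called at a Benjamini-Hochberg adjusted p under 0.05 over all 18809 genes tested. ABF2, ABF3, ABF4, ABI5 and EEL rose in WT and in cost1, and none fell. In WT 45.5% of all genes tested were called, 24.9% higher and 20.6% lower, and in cost1 51%, 26.4% higher and 24.5% lower. Higher genes were 54.7% of the calls in WT and 42.8% without scaling beyond the library total, and 51.9% and 40.9% in cost1. The CPM ranges (counts scaled to library size) of control and dehydrated libraries did not overlap for the same 5 genes in each genotype, as for 60.7% of all genes in WT and 56.7% in cost1. The median log2 change of the 7 was 1.36 in WT and 1.53 in cost1, beside −0.0176 and −0.0348 over all genes. The 7 genes were chosen with earlier results of these data known, so these shares and medians do not test them as a set. In RNA of mixed tissue a larger share of the cells that express a gene and more RNA per cell cannot be told apart.

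ABF3, a main activator of vegetative drought genes, had 182, 214 and 217 expected counts in the WT control libraries (replicates 1 to 3) and 1996, 2043 and 1562 in the WT dehydrated ones. In cost1 it had 216, 544 and 239 in control and 1599, 2794 and 2765 after dehydration. No control library reached any dehydrated one, and cost1 control replicate 2 was high within its group. The rise was 3.33 ± 0.35 on the log2 scale in WT (SE; adjusted p = 2.00e-05), a 10.0-fold change, and 2.98 ± 0.35 in cost1 (adjusted p = 3.64e-05), a 7.88-fold change. The cost1 value was 3.56 without cost1 control replicate 2 and 2.81 without cost1 dehydrated replicate 2. It was 3.40 with replicate 2 of both cost1 groups left out. Of all genes tested, 3.72% had a larger log2 change in WT.

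ABF2, also known as AREB1, acts beside ABF3 and ABF4 in osmotic stress. Its expected counts were 130, 137 and 145 in WT control and 1116, 863 and 933 in WT dehydrated. In cost1 they were 106, 239 and 171 in control and 693, 1498 and 1219 after dehydration. No groups overlapped in either genotype, and replicate 2 was the highest library of both cost1 groups. ABF2 rose by 2.96 ± 0.32 in WT (log2, SE; adjusted p = 2.13e-05) and by 2.88 ± 0.31 in cost1 (adjusted p = 2.29e-05). The cost1 rise was 3.22 without cost1 control replicate 2 and 2.58 without cost1 dehydrated replicate 2. With both left out it was 2.94. The 250-base promoter window of ABF2 holds no ABRE site, while that of ABI5 holds 4, that of ABF3 holds 1 and that of ABF1, not called, holds 2. A link between sites and the size of the change was not tested.

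ABF4, also known as AREB2, changed less. Its expected counts were 205, 234 and 263 in WT control, 322, 356 and 366 in WT dehydrated, 197, 187 and 198 in cost1 control and 310, 530 and 369 in cost1 dehydrated. The groups did not overlap in either genotype. The rise was 0.71 ± 0.19 on the log2 scale in WT (SE; adjusted p = 0.00966), or 1.64-fold, and 1.21 ± 0.19 in cost1 (adjusted p = 0.000354), or 2.31-fold. Without cost1 dehydrated replicate 2 the cost1 rise was 0.92, and it was also 0.92 with replicate 2 of both cost1 groups left out. Before dehydration ABF4 had the highest mean of the 7 in WT, and in both genotypes it held the third place afterwards.

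ABF1 showed no call. It had 130, 151 and 124 expected counts in WT control, 113, 149 and 138 in WT dehydrated, 130, 75 and 160 in cost1 control and 121, 82 and 160 in cost1 dehydrated. The groups overlapped in both genotypes, and replicate 2 was the lowest library of both cost1 groups, opposite to ABF2 and ABF3. Its log2 change was 0.12 ± 0.25 in WT (SE; adjusted p = 0.714) and 0.14 ± 0.26 in cost1 (adjusted p = 0.681), and the sign turned to −0.02 in both without scaling beyond the library total. ABF1 carries 2 ABRE cores in its promoter window.

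ABI5, the factor that holds back germination and early seedling growth under ABA, was the lowest of the 7 in control seedlings. It had 15, 16 and 12 expected counts in WT control and 182, 274 and 267 in WT dehydrated. In cost1 it had 14, 12 and 20 in control and 158, 451 and 339 after dehydration. Every dehydrated library was far above every control library, and cost1 control replicate 2, high for ABF3, was the lowest of its group here. The rise was 4.20 ± 0.41 on the log2 scale in WT (SE; adjusted p = 9.66e-06), an 18.4-fold change, and 4.51 ± 0.40 in cost1 (adjusted p = 5.25e-06), a 22.8-fold change. The cost1 rise was 4.39 without cost1 control replicate 2 and 4.12 without cost1 dehydrated replicate 2. With both left out it was 4.0. In WT 2.33% of all genes tested had a larger log2 change, and in cost1 1.60%.

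Seed and embryo genes were read beside ABI5. LEC1, an embryo regulator, was listed in no library, ABI4 in none, and ABI3 reached at most 3 counts. Over 5 seed and embryo markers, of which 3 were above 0 in WT control and 3 in WT dehydrated, the summed level was 1.46 to 3.49 FPKM in WT control and 0.1 to 1.27 in WT dehydrated. It was 1.86, 19.7 and 118 FPKM in cost1 control replicates 1 to 3, with 4 markers above 0, and 2.18, 10.5 and 8.21 in cost1 dehydrated, with 2 above 0. In the same cost1 control replicates 1 to 3, ABI5 had 14, 12 and 20 counts. The part of the markers in the ABI5 values was not tested.

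EEL, which competes with ABI5 at ABREs in the seed, was a low gene with wide spread. It had 37, 28 and 26 expected counts in WT control and 39, 112 and 62 in WT dehydrated, and the lowest dehydrated library exceeded the highest control one by 2 counts. In cost1 it had 30, 18 and 27 in control and 48, 86 and 61 after dehydration, again without overlap. The log2 change was 1.36 ± 0.38 in WT (SE; adjusted p = 0.0115) and 1.53 ± 0.39 in cost1 (adjusted p = 0.00652). Without WT dehydrated replicate 2 the WT value was 0.88 with an adjusted p of 0.0621, so the WT call rests on that library. With replicate 2 of both cost1 groups left out, an alternative chosen after seeing the data, the cost1 value was 1.07 with an adjusted p of 0.0738.

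AREB3, a close relative of EEL in the basic region, showed no call. It had 130, 182 and 147 expected counts in WT control, 144, 140 and 151 in WT dehydrated, 132, 115 and 146 in cost1 control and 116, 183 and 153 in cost1 dehydrated, with overlap in both genotypes. Its log2 change was 0.06 ± 0.18 in WT (SE; adjusted p = 0.791) and 0.35 ± 0.18 in cost1 (adjusted p = 0.119). Without cost1 dehydrated replicate 1 the cost1 value was 0.52 with an adjusted p of 0.0165, and in WT the sign turned to −0.08 without scaling beyond the total.

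**Figure D3:**
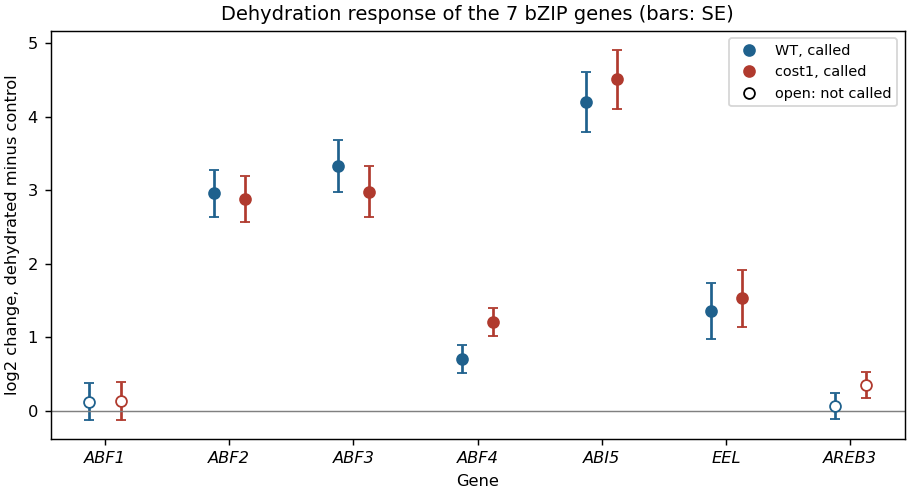
Log2 change from control to dehydrated for the 7 genes in WT (blue) and cost1 (red), with bars of 1 SE; filled points were called and open points were not. ABI5 leads with 4.20 and 4.51, and ABF1 and AREB3 lie near 0.

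Summed over the 7 genes, FPKM ranged over 77.3 to 90.6 in the WT control libraries and 317 to 364 in WT dehydrated. It ranged over 80.5 to 104 in cost1 control and 277 to 503 in cost1 dehydrated. ABF3 held 20.7% ± 0.685 (SD, n = 3) of this sum in WT control and 47.1% ± 3.52 in WT dehydrated, and 29.6% ± 11.3 and 49.9% ± 2.27 in cost1. ABF4 held the largest share in WT control, 25.7% ± 2.88, and 9.35% ± 0.953 in WT dehydrated, although its own level rose. ABF1 went from 16.3% ± 1.58 to 3.98% ± 0.683 and AREB3 from 15.2% ± 2.00 to 3.55% ± 0.395 in WT. ABI5 made up 1.48% ± 0.273 in WT control and 6.11% ± 1.46 in WT dehydrated, so even after the steepest change it stayed a minor part of the sum. Shares are given without a test.

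**Figure D4:**
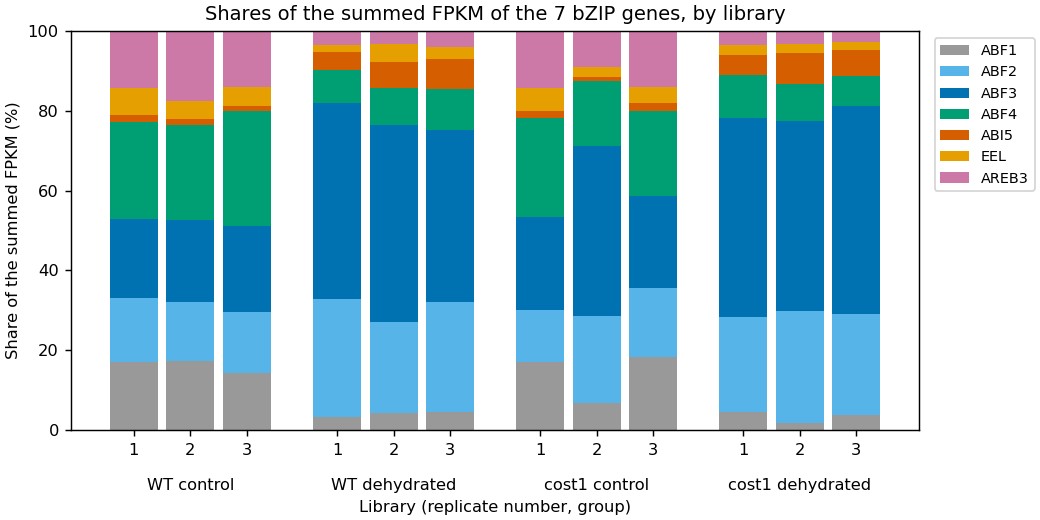
Share of each of the 7 genes in their summed FPKM, in percent, as a stacked bar for each library in 4 groups of 3. ABF2 and ABF3 together fill most of every dehydrated bar, and cost1 control replicate 2 shows a larger ABF3 share, 42.7%, than the other cost1 control libraries, 23.3% and 22.9%.

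The balance between individual factors moved as well. The ratio of ABF3 to ABF4 in FPKM was 0.822, 0.868 and 0.736 in the WT control libraries and 5.83, 5.28 and 4.17 in WT dehydrated. It was 0.942, 2.61 and 1.06 in cost1 control and 4.65, 5.0 and 6.74 in cost1 dehydrated. ABF4 was thus ahead of ABF3 in every WT control library and behind it in every dehydrated library. The ratio of ABF3 to ABF2 moved less, from 1.25, 1.39 and 1.40 in WT control to 1.65, 2.16 and 1.55 in WT dehydrated, without overlap. In cost1 it was 1.79, 1.97 and 1.32 in control and 2.09, 1.68 and 2.05 after dehydration, with overlap.

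The tables also give a length for each gene in each library, which can move for a gene with more than 1 listed transcript. The ABF3 length was 1945, 1961 and 1916 bases in cost1 control and 1880, 1890 and 1868 in cost1 dehydrated, shorter without overlap. In WT it was 1904, 1927 and 1869 bases in control and 1871, 1859 and 1859 after dehydration, with overlap. The ABI5 length in cost1 was 1739, 1879 and 1829 bases in control and 1898, 1886 and 1888 after dehydration, longer without overlap, though the control values rest on 12 to 20 counts. Of 9107 genes with several transcripts, 11.9% showed no overlap in length in WT and 11.2% in cost1. The lengths of the other 5 genes overlapped in both genotypes, and AREB3, with 1 transcript, stayed at 1934 bases.

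Between genotypes none of the 7 genes was called, in control, under dehydration or in the difference of the responses. Over all genes tested, 4 (0.0213%) were called between genotypes in control, 7 (0.0372%) under dehydration and 0 (0%) for the interaction by edgeR, with 893, 1637 and 690 at an unadjusted p under 0.05 and 14, 29 and 1 called by DESeq2. In control the CPM ranges of ABF3 and ABF4 did not overlap between genotypes, as for 15.2% of all genes. ABF3 averaged 31.8 ± 2.81 CPM (SD, n = 3) in WT and 52.1 ± 29.8 in cost1, a difference of 0.71 ± 0.33 (log2, SE; edgeR adjusted p = 0.965), which was 0.13 without cost1 control replicate 2. ABF4 averaged 36.5 ± 4.68 CPM in WT and 30.1 ± 1.11 in cost1, a difference of −0.28 ± 0.19 (adjusted p = 0.965).

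Under dehydration all 7 genes overlapped between genotypes, and 10.7% of all genes did not. The largest of their differences was in ABI5, at 41.5 ± 9.40 CPM in WT and 54.7 ± 27.1 in cost1, or 0.40 ± 0.31 on the log2 scale (edgeR adjusted p = 0.737), and this was 0.01 without cost1 dehydrated replicate 2 and 0.73 without cost1 dehydrated replicate 1. For ABF3 it was 0.36 ± 0.32 (adjusted p = 0.778) and for ABF2 0.24 ± 0.29 (adjusted p = 0.844). The cost1 minus WT difference of the responses was largest for ABF4, at 0.49 ± 0.27 (edgeR adjusted p = 0.999), and was 0.21 without cost1 dehydrated replicate 2. It was −0.35 ± 0.46 for ABF3 and −0.08 ± 0.42 for ABF2, and both turned positive, to 0.22 and 0.25, without cost1 control replicate 2.

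Among the 7 genes the patterns over the 12 libraries were compared by the root mean square difference in log2 CPM after each gene was centred on its mean. ABF2 and ABF3 were the most alike pair at 0.278, followed by ABF1 and AREB3 at 0.356 and ABF4 and AREB3 at 0.394. The median gene outside the 7 lay at 0.51 from ABF1, 0.473 from AREB3 and 0.676 from ABF4, so small differences were usual for these genes. It lay at 1.55 from ABF2 and 1.7 from ABF3. ABF1 and ABI5 were the least alike at 2.12. The most alike pair by pattern was not the most alike by basic region, where ABF2 and ABF3 shared 79.2% of bases.

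Among all other genes tested, the nearest to ABF3 were AT2G41870 at 0.198, SPDS3 at 0.208 and NF-YB2, a nuclear factor Y subunit, at 0.218, where the median gene lay at 1.70. The nearest to ABF2 were AT3G03440 at 0.180, AT2G30550 at 0.198 and AT4G30470 at 0.211, against a median of 1.55. The nearest to ABI5 were LEA14, a late-embryogenesis-abundant protein, at 0.252, A/N-InvC, an invertase, at 0.254 and the phosphatase ABI1 at 0.288, against 2.2. ABF4 was nearest to FATB, an acyl-ACP thioesterase of the plastid, at 0.113, NPL41 at 0.135 and AT3G01590 at 0.144, against 0.676. EEL was nearest to AT4G09760 at 0.218, the bZIP factor gene BZIP9 at 0.239 and NDL1 at 0.247, against 0.909. For ABF1, not called, the nearest were RIBA2 at 0.0973, AT4G27130 at 0.132 and AT5G23575 at 0.149, against 0.51. For AREB3, also not called, they were EER5 at 0.0919, AUR2 at 0.103 and AT2G23985 at 0.105, against 0.473. These are descriptions over 12 libraries that share the dehydration contrast.

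No other group A factor was called higher. Of 6, 3 had too few counts to test, and DPBF2, a seed factor, reached at most 7 counts, AT5G42910 1 and BZIP27 11. FD, a flowering partner of FT, fell in WT by 0.83 ± 0.29 on the log2 scale (SE; edgeR adjusted p = 0.038) and was −0.43 ± 0.30 in cost1, not called. GBF4 was 0.25 ± 0.19 in WT and 0.35 ± 0.19 in cost1, and AT5G44080 was −0.12 ± 0.16 and −0.03 ± 0.16, none called. The median of the 3 was −0.123 in WT and −0.0281 in cost1.

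Of 15 kinases and phosphatases that act on the factors, 10 rose and 5 were not called in each genotype, beside 24.9% of all genes called higher in WT and 26.4% in cost1, with medians of 1.03 in WT and 1.26 in cost1. This list was chosen with earlier results of these data known, so its counts do not test a response of the list. The 4 with the smallest p in WT were 3 clade A phosphatases and a CBL-interacting kinase. ABI1 rose by 4.13 ± 0.26 in WT and 4.07 ± 0.26 in cost1 (log2, SE), ABI2 by 5.0 ± 0.41 and 4.58 ± 0.39, PP2CA by 3.95 ± 0.34 and 3.72 ± 0.34, and the kinase CIPK11 by 3.86 ± 0.28 and 3.92 ± 0.28. In ABI1 the level went from 51.4 ± 4.21 to 903 ± 133 CPM in WT. The highest edgeR adjusted p among these 4 in either genotype was 5.94e-06. The 5 not called in WT lay between −0.37 and −0.06.

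Of 9 proteins that degrade, modify or repress the factors, 5 rose and 4 were not called in each genotype. Over all genes, 24.9% were called higher in WT and 26.4% in cost1. The medians of the 9 were 0.605 in WT and 0.701 in cost1. These genes too were chosen with earlier results of these data known, so their counts do not test a response of the list. The ABI5-binding proteins that repress ABI5 led the list: AFP3 rose by 6.64 ± 0.70 in WT and 5.23 ± 0.62 in cost1, AFP1 by 5.36 ± 0.50 and 5.40 ± 0.50, and AFP2 by 2.67 ± 0.31 and 2.83 ± 0.31 (log2, SE). SIZ1, a SUMO ligase that acts on ABI5, rose by 0.60 ± 0.10 and 0.70 ± 0.10. The highest edgeR adjusted p among these 4 in either genotype was 0.000445. AFP3 in cost1 control had 11 to 101 counts over its 3 libraries.

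Of 10 transcription regulators of ABI5, 8 were tested, and in WT 3 rose, 3 fell and 2 were not called, while in cost1 3 rose, 2 fell and 3 were not called. With so few genes these counts are near the shares over all genes, 24.9% higher and 20.6% lower in WT and 26.4% and 24.5% in cost1. WRKY40, a repressor of ABI5, rose by 4.32 ± 0.29 in WT and 4.95 ± 0.30 in cost1 (log2, SE). MYB7, a repressor in the seed, rose by 3.89 ± 0.38 and 3.33 ± 0.36, and WRKY18 by 2.95 ± 0.34 and 2.72 ± 0.34. PIF1, a phytochrome-interacting factor, fell by 2.08 ± 0.31 and 1.97 ± 0.31. Across both genotypes the edgeR adjusted p of these 4 was at most 0.000317. The median over the 8 was −0.244 in WT and −0.157 in cost1.

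Of 21 genes reported as targets of the factors, 18 rose in WT and 19 in cost1, and none fell. Over all genes, 24.9% were called higher in WT and 26.4% in cost1. The list was chosen with earlier results of these data known, so its counts do not test the output of the factors. Its median log2 change was 4.43 in WT and 4.49 in cost1. With genes at 0 in WT control put at a lower bound, the WT median was 3.79. RD29A, a dehydration marker, rose by 7.19 ± 0.49 in WT and 6.28 ± 0.47 in cost1, from 14.1 ± 1.22 to 2060 ± 312 CPM in WT and 35.3 ± 22.0 to 2740 ± 1100 in cost1. BAM1, a beta-amylase, rose by 4.62 ± 0.34 and 4.49 ± 0.34, and RD26, a NAC factor, by 4.94 ± 0.44 and 5.97 ± 0.46. KIN1 rose by 8.82 ± 0.78 and 8.41 ± 0.70 from 5.19 counts summed over the WT control libraries, and its reads may be shared with its close copy KIN2, so its values are uncertain. Across both genotypes the edgeR adjusted p of these 4 was at most 5.8e-06. No gene of these 5 lists was called in any genotype or interaction comparison.

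**Figure D5:**
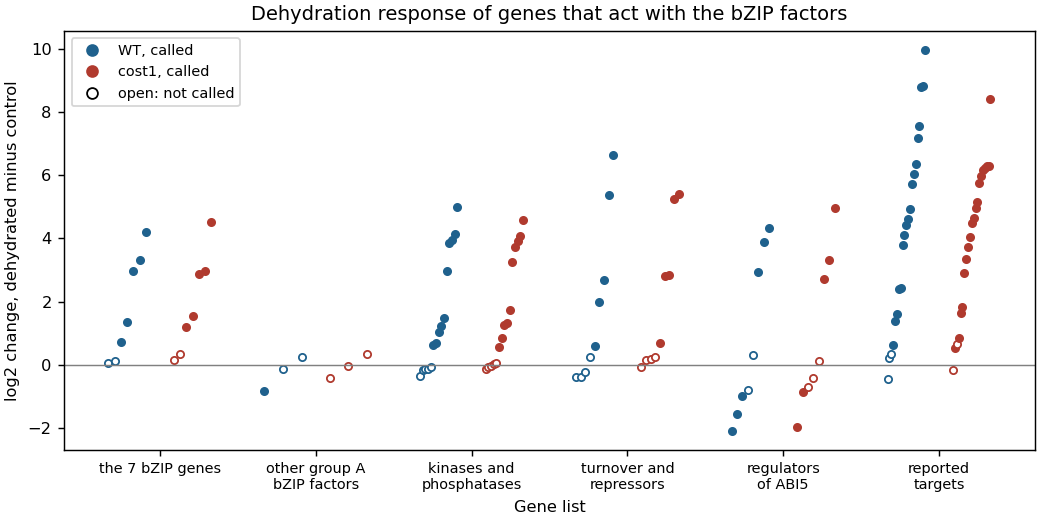
Log2 change from control to dehydrated for each tested gene of the 7 bZIP genes and of 5 lists of genes that act with them, in WT (blue) and cost1 (red), with filled points called and open points not. The target RD29A, at 7.19 in WT, and the repressor AFP3, at 6.64, stand among the high points, and the 3 other group A factors lie between −0.83 and 0.35.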

How the data were processed

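The deposited tables of 12 libraries, 3 in each of 4 groups, were joined by gene ID, with absent genes read as 0. The submitters' processing notes list the tools STAR 2.4.0, HTSeq 0.6.0 and DESeq2 and the build TAIR10, but no source names the program behind the tables. Each deposited table holds, per the file headers, a gene length, an expected count (an estimate of reads, not scaled) and an FPKM that the authors scaled to length and depth. Of the listed expected counts 8.57% were not whole within 0.005, but all 84 values of the 7 genes were. After rounding, edgeR 4.0.16 (R 4.3.3) was run on the counts (filterByExpr, TMM, quasi-likelihood F test, 1 fit of the 12 libraries, Benjamini-Hochberg over 18809 genes). The standard error is the log2 change divided by the root of F.

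The 7 genes and the lists were chosen with earlier results of these data known. Named list genes are the 4 with the smallest p in the WT response, and the nearest genes are the 3 of smallest root mean square difference (prior count 0.5). Lower bounds used a floor of 3 counts over the group. The script was tested on simulated data. The labels number the replicates but do not say that equal numbers are pairs. In cost1 the deviations of same-numbered control and dehydrated libraries had correlations of 0.165, 0.366 and 0.141, each over 0.1. Between WT and cost1 dehydrated libraries they were 0.362, −0.057 and −0.16. The main tests used no pairing, and a replicate block was an alternative.

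Gene models in the tables matched those of the TAIR10.1 annotation: all 13455 genes with 1 transcript in both had the same length. Sequences and coordinates are from that RefSeq copy. The basic region was found by the bZIP signature in the reading frame, and the motif ACGTG was searched on both strands. Alternatives were other scalings (RLE, none), no filter, DESeq2 1.42.0, limma 3.58.1 on log2(FPKM + 0.1) and log2(FPKM + 1), a replicate block, only the groups compared, and each library left out.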

Additional observations from a re-analysis of the deposited data

How the results depend on the processing

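All 5 called responses in each genotype kept their direction under 21 alternatives, and 2 calls were lost, both of EEL (0.88, adjusted p = 0.0621 without WT dehydrated replicate 2, and 1.07, adjusted p = 0.0738, with replicate 2 of both cost1 groups out); AREB3 in cost1 was gained at 0.52. The count of the 7 genes called higher ran from 4 to 5 in WT and from 4 to 6 in cost1. Of 728 alternative values, 43 changed sign, all of uncalled results, and the cause was not tested. In the WT response ABF1 was −0.02 without scaling and with limma on either pseudocount, and AREB3 was −0.08 without scaling and −0.07 with limma; in cost1 ABF1 was −0.02 without scaling. Leaving out scaling moved the median log2 of all genes from −0.0176 to −0.164 in WT and from −0.0348 to −0.188 in cost1, and the share of calls that were higher from 54.7% to 42.8% and from 51.9% to 40.9%.

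With replicate 2 of both cost1 groups left out, the genotype difference in control was 0.08 for ABF1 and −0.01 for ABF2; under dehydration it was 0.04 for ABF1, −0.06 for ABF2, −0.07 for ABF4 and −0.14 for AREB3; and the interaction was −0.05 for ABF1, 0.05 for ABF3, −0.22 for ABI5 and −0.31 for EEL. With each library left out in turn, the WT response of AREB3 ran from −0.03 to 0.19 and the cost1 response of ABF1 from −0.10 to 0.34. The genotype difference in control ran from −0.37 to 0.08 for ABF1, −0.02 to 0.56 for ABF2 and −0.11 to 0.22 for ABI5. Under dehydration it ran from −0.39 to 0.04 for ABF1, −0.05 to 0.50 for ABF2, −0.07 to 0.39 for ABF4, −0.14 to 0.23 for AREB3, 0.01 to 0.73 for ABI5 and −0.43 to 0.36 for EEL. The interaction ran from −0.23 to 0.21 for ABF1, −0.37 to 0.25 for ABF2, −0.58 to 0.22 for ABF3, 0.21 to 0.66 for ABF4, −0.08 to 0.64 for ABI5 and −0.14 to 0.65 for EEL.

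With a replicate block the ABF3 response in cost1 was 3.03 and that of EEL 1.47, and the block changed no call of the 7 genes in any comparison. Outside the cost1 response, same-numbered libraries did not all deviate together (lowest correlation −0.16). The main tests did not take the numbers as pairs in any comparison. ABI5 in control rests on 12 to 20 counts and EEL on 18 to 37.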
